A study of Mus musculus with 12 samples.

Results

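The genes described are 9 transcription factor and early-response genes measured by RNA-seq in mouse liver: the AP-1 subunits Jun, Junb, Jund, Fos and Fosl2, the zinc-finger factor Egr1, the early-response genes Ier2 and Ier3, and the proto-oncogene Myc. They were chosen by name as members of the AP-1 and immediate early group, with earlier results of these data known. All 9 had a row among the 13097 genes of the deposited table. The libraries came from snap-frozen liver of 12 female C57BL/6 mice aged 3 months, with 3 individual mice in each of 4 groups: ethanol-fed mice labelled as liver-specific Sirt6 knockouts, ethanol-fed wild type, pair-fed mice with the same knockout label, and pair-fed wild type. Ethanol-fed mice received the 5% Lieber-DeCarli liquid diet over 10 days and then 1 binge of ethanol at 5 g/kg, while pair-fed mice had an isocaloric diet without ethanol and a maltose dextrin binge. The sources used here do not give the promoter or Cre line behind the liver-specific deletion, nor the interval between the binge and the collection of tissue.

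Immediate early genes are switched on within minutes of a stimulus, because the factors that act on their promoters, such as SRF with ELK factors, CREB and pre-bound AP-1 or ATF dimers, are already in the cell and need only be phosphorylated. Their RNAs are usually short-lived. The JUN proteins pair with each other or with FOS proteins to make AP-1, whereas FOS proteins need a JUN partner; JNK kinases activate JUN, ERK kinases act through ELK factors on Fos and Egr1, and MYC binds DNA with its partner MAX. In liver, Jun, Fos, Egr1 and Myc are known for their induction after partial hepatectomy, during acute injury and in the stress response of hepatocytes.

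The deposited counts summed to between 17305141 and 18279809 reads per library. The 9 genes together took 0.0739% to 0.159% of the counts in the 6 ethanol-fed libraries, against 0.0176% to 0.0382% in the 6 pair-fed libraries. Sirt6, the targeted gene, was not called different between the labelled knockouts and wild type. It stood at 2.71, 3.17 and 3.87 CPM (the count scaled to library size by TMM) in ethanol-fed labelled knockouts and 3.47, 3.08 and 3.08 CPM in ethanol-fed wild type (log2 fold change 0.01 ± 0.21 SE, adjusted p = 0.985, edgeR). Pair-fed labelled knockouts had 3.02, 2.58 and 2.71 CPM of Sirt6, against 2.91, 2.86 and 3.98 CPM in pair-fed wild type (log2 fold change -0.23 ± 0.21, adjusted p = 0.914, edgeR). These values rest on 46 to 68 reads per library, and counts over the whole gene cannot tell whether some of its exons were deleted. They therefore do not decide the genotype. The group is called the labelled knockout throughout, and no direction below is a statement about loss of Sirt6. The tissue label was matched by its markers: Alb, the gene of serum albumin, took 6.10% to 9.55% of counts in ethanol-fed libraries and 11.03% to 12.69% in pair-fed libraries, and 8 of 9 listed hepatocyte markers were in the table. In whole liver, fewer cells of a type and less RNA per cell cannot be told apart.

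The 9 genes share a low number of exon blocks, a trait that the choice by name did not use. Each has between 1 and 4 exon blocks in the deposited mm10 gene models, with a median of 2, against a median of 9 over 13094 genes. Jun, Junb, Jund and Ier2 are single uninterrupted blocks, a structure that 2.3% of the genes have. The median span of the 9 genes on the genome was 3187 bases, against 21700 bases over the table. Fosl2 was the exception, with a span of 21368 bases. Exonic length differed less, with a median of 2399 bases over the 9 genes and 2906 over the table. Fosl2 (5863 bases), Jun (3187) and Egr1 (3072) were above the table's median. On mm10, Jun lies on chromosome 4 (95049036 to 95052222, minus strand), Fos on chromosome 12 (85473901 to 85477270, plus strand) and Fosl2 on chromosome 5 (32136472 to 32157839, plus strand). Chromosome 8 holds Junb (84976909 to 84978748, minus strand), Jund (70697739 to 70700616, plus strand) and Ier2 (84661331 to 84662852, minus strand). Egr1 lies on chromosome 18 (34861207 to 34864956, plus strand), Ier3 on chromosome 17 (35821713 to 35822911, plus strand) and Myc on chromosome 15 (61985341 to 61990361, plus strand).

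In GENCODE, Jun is overlapped by the antisense gene Junos and Jund by the antisense gene Gm11175. The sources used here do not give the strand setting of the counting, and reads of either partner cannot be told apart from those of Jun and Jund.

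Promoter sequence was searched for 6 members, Jun, Junb, Jund, Fos, Fosl2 and Ier3, in windows from 250 bases before to 50 bases after the RefSeq start. The promoters of Egr1, Ier2 and Myc were not searched. The Jun, Fos and Junb promoters are shown because they hold letter matches to elements of the signal-responsive kind described above. For Junb the only such match is TGACG, found in 20.8% of windows. Whether these letters act in liver was not tested. Capitals mark matches to the 5 motifs named after the sequences, and each promoter is printed 5′ to 3′ on the gene's own strand (RefSeq, GRCm38.p6).
Jun promoter, chr4:95052223-95052392, minus strand: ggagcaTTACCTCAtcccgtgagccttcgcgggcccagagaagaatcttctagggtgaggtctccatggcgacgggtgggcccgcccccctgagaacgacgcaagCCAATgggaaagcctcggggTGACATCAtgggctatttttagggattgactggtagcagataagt
Fos promoter, chr12:85473750-85473889, plus strand: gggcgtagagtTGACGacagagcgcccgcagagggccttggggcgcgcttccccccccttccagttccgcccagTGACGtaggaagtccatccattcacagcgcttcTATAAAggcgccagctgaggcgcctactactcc
Junb promoter, chr8:84978749-84978888, minus strand: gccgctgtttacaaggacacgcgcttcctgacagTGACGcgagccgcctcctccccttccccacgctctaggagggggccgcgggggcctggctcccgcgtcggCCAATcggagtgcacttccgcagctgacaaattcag

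Both AP-1-like elements known from the Jun promoter were found by their letters. TGACATCA, which JUN and ATF2 are known to bind, ended 38 bases before the start (from -45 to -38) and has a match in 3.62% of 32851 promoter windows of the same length, counting both strands. TTACCTCA lay from -164 to -157 in Jun and has a match in 0.889% of windows. TGACG, the first letters of a CREB site, occurred in Fos (beginning at -129 and -66) and in Junb (beginning at -106), and in 20.8% of windows. CCAAT, the letters of the NF-Y box, occurred in Jun, Junb and Ier3 and in 37.4% of windows. TATAAA began at -33 in Fos and at the RefSeq start itself in Junb, and occurred in 13.6% of windows. GENCODE starts Junb farther downstream on the minus strand, at 84978718 in place of 84978748, so this TATAAA lies before the GENCODE start. The letters TGANTCA (7.81% of windows), TGACGTCA (1.79%) and the CArG box bound by SRF (1.63%) were not found in the 6 windows. Sequence farther from the start, and the promoters of Egr1, Ier2 and Myc, lay outside this search. TGACG is contained in TGACGTCA, so these 2 searches overlap.

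AU-rich elements in the 3′ untranslated region mark many short-lived RNAs for decay. The core letters ATTTA occurred at least 2 times in the longest GENCODE 3′ untranslated region of 7 of the 9 genes (77.8%), against 51.5% of 12242 genes. The longer element TTATTTATT occurred in 2 of the 9, Fos and Fosl2 (22.2%, against 7.92% of genes), and the sites are shown with the element in capitals.
Fos, bases 647 to 671 of the 3′ untranslated region, plus strand: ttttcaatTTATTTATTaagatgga
Fosl2, bases 3684 to 3708 of the 3′ untranslated region, plus strand: ttattttaTTATTTATTttaaatgt
Ier3 had 5 copies of ATTTA in 613 bases, Jun 4 in 1233 bases and Myc 2 in 466 bases, while Ier2 had 0 in 755 bases.

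Levels of different genes were compared per length, as RPKM (CPM per kilobase of exon) with the deposited exonic length. Jund had the highest mean of the 9 genes in each of the 4 groups, at 132.5 ± 28.7 RPKM in ethanol-fed labelled knockouts, 138 ± 46.4 in ethanol-fed wild type, 30.3 ± 6.34 in pair-fed labelled knockouts and 33.3 ± 5.31 in pair-fed wild type (mean ± SD, n = 3 each). In pair-fed labelled knockouts its range overlapped that of the next gene, Ier2 (25.9 ± 6.85 RPKM). Egr1 was above Jund in pair-fed labelled knockout mouse 2 (38.1 against 34.9 RPKM). Myc was above Jund in ethanol-fed wild-type mouse 3 (168 against 161 RPKM). Fos had the lowest mean in each group, at 3.41 ± 1.48 RPKM in ethanol-fed labelled knockouts, 3.42 ± 2.03 in ethanol-fed wild type, 2.20 ± 2.14 in pair-fed labelled knockouts and 0.616 ± 0.277 in pair-fed wild type. Its range overlapped that of the next gene, Fosl2, in 3 of the 4 groups, and in pair-fed wild type it lay below the next gene, Ier3. With GENCODE lengths Fosl2 was below Fos in ethanol-fed labelled knockouts (2.34 against 3.04 RPKM) and in pair-fed labelled knockouts (1.405 against 1.96 RPKM). In pair-fed wild type the genes fell in the order Jund, Ier2, Egr1, Junb, Jun, Myc, Fosl2, Ier3 and Fos, and the ranges of Jund, Jun and Fos over the mice did not overlap those of their neighbours. The other adjacent pairs of that order overlapped. Jund was not apart from all genes, since Egr1 in mouse 1 (29.97 RPKM) was above Jund in mouse 2 (27.34 RPKM). In ethanol-fed wild type Myc, at 79.6 ± 78.3 RPKM, was the second most abundant after Jund, and Egr1 (74.1 ± 28.9) and Jun (59.3 ± 36.1) came next. Those neighbours overlapped each other, and the only gap in that group lay between Junb (28.8 ± 13.9) and Ier3 (7.28 ± 3.43). In ethanol-fed labelled knockouts Jund stood apart from Egr1, the next gene (43.1 ± 25.6 RPKM), and Myc was sixth at 17.3 ± 6.29 RPKM.

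Which early-response genes differed in liver after ethanol was asked first in wild type. Ethanol-fed wild-type livers held more RNA of 8 of the 9 genes, from 26.2-fold for Myc and 7.98-fold for Jun to 1.71-fold for Ier2. Each of these 8 passed an adjusted p of 0.05 in edgeR's quasi-likelihood test, and Junb did not. Over all genes tested, 18.9% were called higher and 33.4% were called in either direction in this comparison. The median log2 fold change was 2.05 over the 9 genes and 0.03 over all genes. DESeq2 called all 9 higher, limma-voom 7, without Fos and Junb, and limma-voom with group weights 6, without Egr1 as well.

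Among the JUN proteins, Jun is the strongest activator, Junb activates more weakly and can restrain JUN, and Jund is the member made in most resting cells. Jun stood at 90.3, 161 and 315 CPM in ethanol-fed wild type, against 20.9, 24.8 and 25.25 CPM in pair-fed wild type. The groups did not overlap, and ethanol-fed mouse 3 was the highest. Jun rose by 3.00 ± 0.47 on the log2 scale (SE, 3 mice per group, adjusted p = 0.000956), and by 2.41 without ethanol-fed mouse 3 (adjusted p = 0.00263). Jund stood at 244, 484 and 464 CPM in ethanol-fed wild type, against 100.5, 78.7 and 108 CPM in pair-fed wild type. It rose by 2.05 ± 0.27 (adjusted p = 0.000243), and its lowest ethanol-fed mouse was above its highest pair-fed mouse. Junb stood at 44.5, 81.7 and 32.6 CPM in ethanol-fed wild type, against 36.2, 21.9 and 21.45 CPM in pair-fed wild type. These groups overlapped, since ethanol-fed mouse 3 was below pair-fed mouse 1, and the log2 fold change of 1.00 ± 0.37 missed the threshold (adjusted p = 0.0593). Junb passed without ethanol-fed mouse 3 (log2 fold change 1.25, adjusted p = 0.0334), without pair-fed wild-type mouse 1 (1.29, adjusted p = 0.0423), without pair-fed labelled knockout mouse 1 (1.00, adjusted p = 0.0297), with DESeq2 (0.99, adjusted p = 0.0191), with total counts in place of TMM (1.12, adjusted p = 0.0276) and when tested genes had to reach 1 CPM in 6 libraries (1.00, adjusted p = 0.0454). Its adjusted p ranged from 0.0191 to 0.271 over the alternatives.

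FOS is the classical transient partner of JUN, and FOSL2, also called FRA2, is a longer-lived relative. Fos stood at 6.01, 11.9 and 3.59 CPM in ethanol-fed wild type, from 116, 208 and 70 reads, against 1.94, 1.11 and 0.818 CPM in pair-fed wild type, from 34, 19 and 14 reads. The groups did not overlap, and Fos rose by 2.46 ± 0.74 on the log2 scale (adjusted p = 0.0252). The call was lost without ethanol-fed mouse 2 (log2 fold change 1.87, adjusted p = 0.0874), without pair-fed mouse 2 (2.36, adjusted p = 0.0786) and without pair-fed mouse 3 (2.22, adjusted p = 0.0886), and also with limma-voom (2.34, adjusted p = 0.0566) and limma-voom with group weights (2.34, adjusted p = 0.0973), with adjusted p from 0.0076 to 0.0973 over the alternatives. Fosl2 stood at 23.2, 34.7 and 46.7 CPM in ethanol-fed wild type, against 13.5, 13.9 and 14.8 CPM in pair-fed wild type. Its pair-fed mice lay within 1.095-fold of each other, all below the ethanol-fed mice, and Fosl2 rose by 1.31 ± 0.23 (adjusted p = 0.00124).

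EGR1 is a zinc-finger activator induced by growth factors and injury. Egr1 stood at 216, 322 and 145 CPM in ethanol-fed wild type, against 92.05, 46.8 and 25.7 CPM in pair-fed wild type. It rose by 2.05 ± 0.61 on the log2 scale (adjusted p = 0.0239) with groups that did not overlap, although pair-fed mice differed by 3.59-fold among themselves. The call was lost without ethanol-fed mouse 2 (log2 fold change 1.70, adjusted p = 0.0670), without pair-fed mouse 2 (1.95, adjusted p = 0.0788) and without pair-fed mouse 3 (1.71, adjusted p = 0.0784), and the change was 2.65 without pair-fed mouse 1. It was also lost with limma-voom and group weights (2.17, adjusted p = 0.0760), and adjusted p ranged from 0.0086 to 0.0788 over the alternatives. Ier2 encodes a small nuclear protein, and it stood at 57.5, 80.5 and 46.5 CPM in ethanol-fed wild type, against 38.0, 38.2 and 31.6 CPM in pair-fed wild type. It had the smallest change of the 8 called, 0.78 ± 0.22 (adjusted p = 0.0171), and was not called without ethanol-fed mouse 2 (0.51, adjusted p = 0.0865) or without pair-fed mouse 3 (0.69, adjusted p = 0.0719). Ier3, also called IEX-1, is a regulator of cell survival, and it stood at 3.73, 10.9 and 9.18 CPM in ethanol-fed wild type, against 1.88, 2.34 and 3.39 CPM in pair-fed wild type. Ier3 rose by 1.64 ± 0.38 (adjusted p = 0.00591), with ethanol-fed mouse 1 just above the highest pair-fed mouse.

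Myc, which drives ribosome production and cell growth, had the widest range of the 9 genes. It stood at 47.8, 121 and 404 CPM in ethanol-fed wild type, from 923, 2130 and 7874 reads, against 5.93, 7.54 and 8.42 CPM in pair-fed wild type, from 104, 129 and 144 reads. Every ethanol-fed mouse was above every pair-fed mouse, and the 3 ethanol-fed mice differed by 8.45-fold among themselves. Myc rose by 4.71 ± 0.70 on the log2 scale (adjusted p = 0.000735), and by 3.53 without ethanol-fed mouse 3 (adjusted p = 0.000594). All 8 called genes had groups that did not overlap, as did 24.8% of all genes in the same direction. In ethanol-fed wild-type livers the 8 hepatocyte markers summed to between 86790 and 119000 CPM, against 154000 to 156100 CPM in pair-fed wild type. Alb was most of this sum, with 57550 of 86790 CPM in ethanol-fed mouse 1. Called lower were 3 of the 8 (Alb, Ttr and Asgr1), or 37.5%, against 14.5% of all genes. In labelled knockouts the sum was 78880 to 141200 CPM with ethanol, against 144500 to 165200 CPM in pair-fed mice. There 0 of the 8 were called lower and 1 higher, against 10.9% and 13.7% of all genes. The part of these marker levels in the levels of the 9 genes was not tested.

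**Figure D1:**
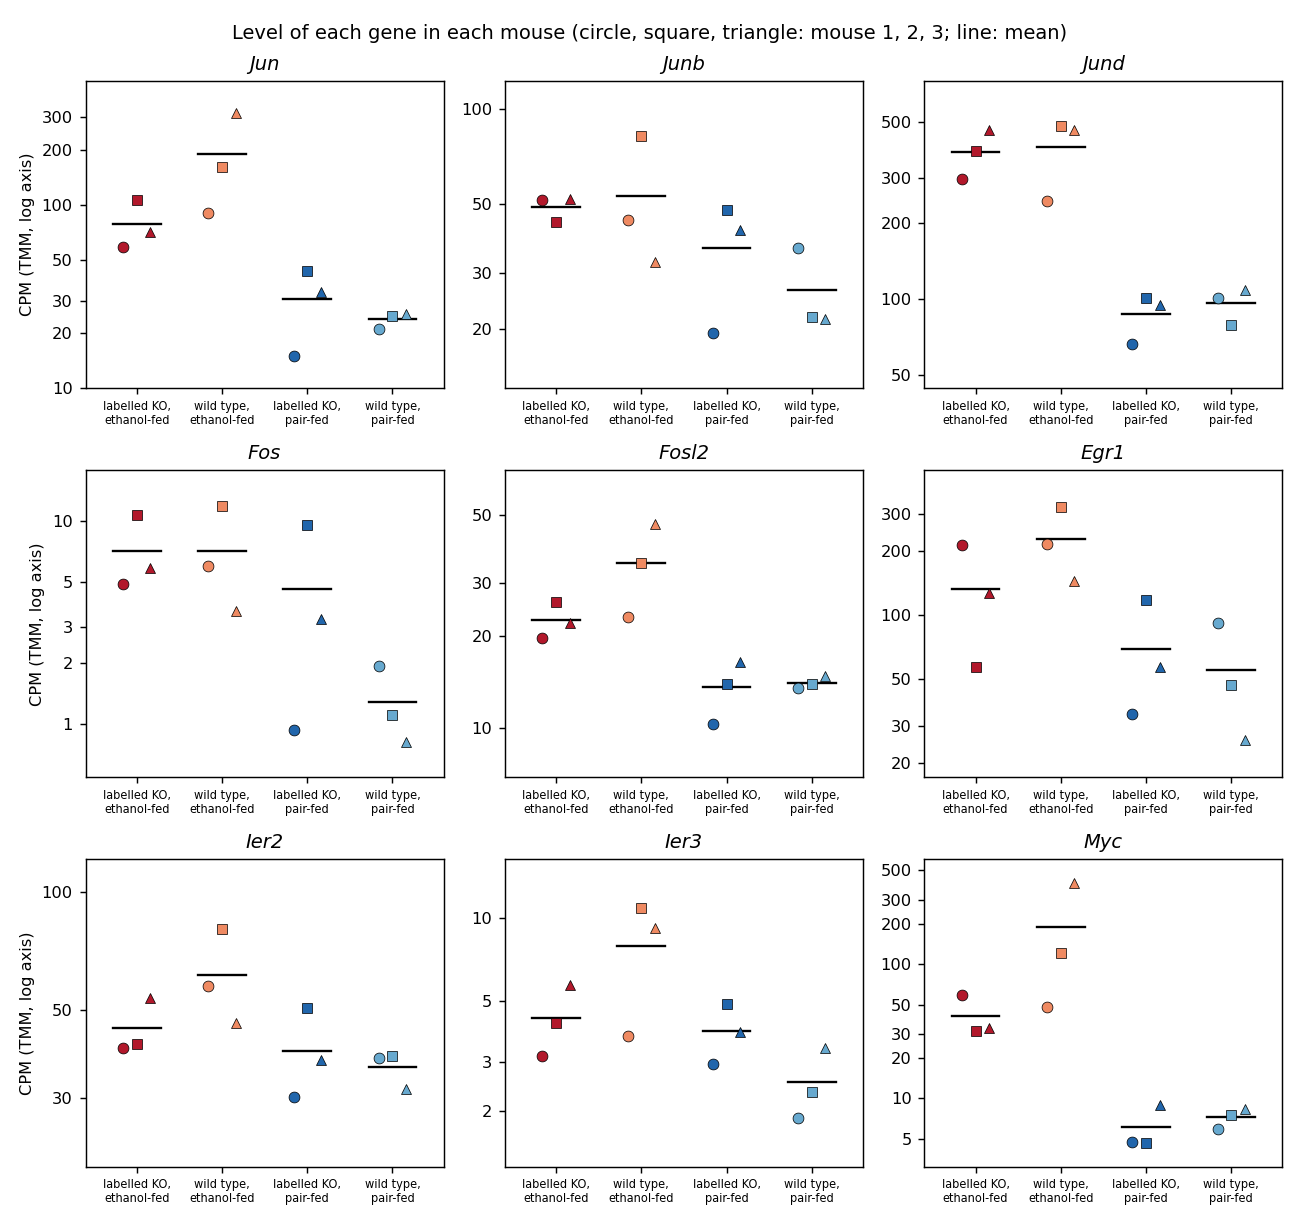
Level of each of the 9 genes in each mouse, as TMM-normalised CPM on a log axis whose range differs between panels. Columns are ethanol-fed labelled knockout, ethanol-fed wild type, pair-fed labelled knockout and pair-fed wild type; symbols are mice 1, 2 and 3 and the line is the group mean. Jun, Jund, Fosl2 and Myc are above all pair-fed mice in each of the 6 ethanol-fed mice, whereas Fos in pair-fed labelled knockout mouse 2 (9.60 CPM) reaches the ethanol-fed range.

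In labelled knockouts, ethanol feeding went with higher RNA of 4 of the 9 genes: Jund (4.38-fold), Myc (6.77-fold), Jun (2.58-fold) and Fosl2 (1.66-fold). Junb, Fos, Egr1, Ier2 and Ier3 had positive fold changes that did not pass the test. In this comparison 13.7% of all genes were called higher and 24.6% in either direction, and the median log2 fold change was 0.73 over the 9 genes and 0.04 over all genes. The same 4 genes were called by DESeq2 and by limma-voom.

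Jund stood at 298, 383 and 463 CPM in ethanol-fed labelled knockouts, against 66.3, 100.5 and 94.6 CPM in pair-fed labelled knockouts. It rose by 2.13 ± 0.27 on the log2 scale (3 mice per group, adjusted p = 0.000386), with the lowest ethanol-fed mouse far above the highest pair-fed one. Myc stood at 58.9, 31.95 and 33.6 CPM in ethanol-fed labelled knockouts, against 4.71, 4.66 and 9.01 CPM in pair-fed labelled knockouts. It rose by 2.76 ± 0.66 (adjusted p = 0.0118), with groups that did not overlap. Jun stood at 59.0, 106.5 and 71.05 CPM in ethanol-fed labelled knockouts, against 14.9, 43.5 and 33.3 CPM in pair-fed labelled knockouts. The groups did not overlap and the change was 1.37 ± 0.45, but the adjusted p of 0.0451 was close to the threshold. The Jun call was lost in 8 of 12 fits that left out 1 library each: ethanol-fed labelled knockout mouse 2 or 3, pair-fed labelled knockout mouse 1 or 3, ethanol-fed wild-type mouse 2, or any pair-fed wild-type mouse (adjusted p 0.0582 to 0.129). It was also lost with median-of-ratios size factors (log2 fold change 1.34, adjusted p = 0.0515), which left 3 of the 9 genes called, and its adjusted p ranged from 0.00689 to 0.129 over the alternatives. Fosl2 stood at 19.8, 25.9 and 22.15 CPM in ethanol-fed labelled knockouts, against 10.35, 13.9 and 16.5 CPM in pair-fed labelled knockouts. Fosl2 rose by 0.73 ± 0.23 (adjusted p = 0.0343) with groups that did not overlap. Its call was lost without ethanol-fed labelled knockout mouse 2 or 3, pair-fed labelled knockout mouse 1 or 2, or ethanol-fed wild-type mouse 2 (adjusted p 0.0549 to 0.132). Only 2 of the 9, Jund and Myc, were thus called without ethanol-fed labelled knockout mouse 2 or 3, ethanol-fed wild-type mouse 2 or pair-fed labelled knockout mouse 1. Groups that did not overlap in this direction were found for these 4 genes and for 23.5% of all genes.

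The 5 genes without a call in labelled knockouts had overlapping groups. Fos stood at 4.90, 10.7 and 5.86 CPM in ethanol-fed labelled knockouts, against 0.930, 9.60 and 3.29 CPM in pair-fed labelled knockouts. Pair-fed mouse 2 had nearly as much Fos as the highest ethanol-fed mouse, and the log2 fold change of 0.63 ± 0.66 had an adjusted p of 0.520. Egr1 stood at 214, 56.7 and 127 CPM in ethanol-fed labelled knockouts, against 33.95, 117 and 56.5 CPM in pair-fed labelled knockouts (log2 fold change 0.94 ± 0.59, adjusted p = 0.271). Ethanol-fed mouse 2 had less Egr1 than pair-fed mouse 2. Junb stood at 51.3, 43.6 and 51.65 CPM in ethanol-fed labelled knockouts, against 19.4, 47.85 and 41.2 CPM in pair-fed labelled knockouts (log2 fold change 0.43 ± 0.37, adjusted p = 0.422). Ier2 stood at 40.2, 41.1 and 53.9 CPM in ethanol-fed labelled knockouts, against 30.2, 50.7 and 37.4 CPM in pair-fed labelled knockouts (log2 fold change 0.19 ± 0.22, adjusted p = 0.557). Both genes were highest in pair-fed mouse 2 within the pair-fed group. Ier3 stood at 3.17, 4.16 and 5.74 CPM in ethanol-fed labelled knockouts, against 2.965, 4.89 and 3.87 CPM in pair-fed labelled knockouts (log2 fold change 0.15 ± 0.38, adjusted p = 0.801). Markers of Kupffer cells and macrophages moved with ethanol in labelled knockouts: 9 of 10 fell (median log2 fold change -1.22), and they summed to between 269 and 359 CPM in ethanol-fed labelled knockouts, against 580.1 to 740 CPM in pair-fed labelled knockouts. None of the 10 was called in wild type, where they summed to between 274 and 646 CPM in ethanol-fed and 390.4 to 580.1 CPM in pair-fed mice. Of 10 lymphocyte markers 3 fell in labelled knockouts and 2 in wild type. Of 11 listed neutrophil and monocyte markers only 4 were measured, of which 2 fell in labelled knockouts and 1, S100a9, rose in wild type. Over all genes, 10.9% were called lower in labelled knockouts and 14.5% in wild type, where 18.9% were called higher. Both lists had low levels, with sums per library of 3.83 to 10.81 CPM for lymphocyte markers and 4.05 to 15.42 CPM for neutrophil and monocyte markers. The part of these cell markers in the results on the 9 genes was not tested.

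The labelled knockouts were next compared with wild type in the same feeding group. In pair-fed mice 0 of the 9 genes were called by edgeR, DESeq2 or limma-voom, against 0.87% of all genes by edgeR. At an unadjusted p under 0.05 edgeR and DESeq2 each had 1 of the 9, Fos, and limma-voom had 0, against 8.48%, 8.66% and 8.32% of all genes with these 3 tools, so the count of 1 was near the background. The authors' deposited table lists 0 of the 9 at an FDR under 0.05 in pair-fed mice, against 1.28% of all genes higher and 0.565% lower. Fos stood at 0.930, 9.60 and 3.29 CPM in pair-fed labelled knockouts (16, 171 and 57 reads), against 1.94, 1.11 and 0.818 CPM in pair-fed wild type. The log2 fold change of 1.83 ± 0.75 came with overlapping groups and missed the threshold after adjustment (edgeR, adjusted p = 0.485). Without pair-fed labelled knockout mouse 2 it was 0.71. The other 8 genes had log2 fold changes between -0.25 (Myc) and 0.62 (Ier3). The groups overlapped for all 9, while 11.8% of all genes had labelled knockouts entirely above wild type and 12.6% entirely below.

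In ethanol-fed mice 8 of the 9 log2 fold changes of labelled knockout over wild type were negative, with a median of -0.625 against -0.01 over all genes. By edgeR 0 of the 9 genes were called, against 1.13% of all genes, and 4 of the 9 had an unadjusted p under 0.05, against 14.7% of all genes. These were Myc (log2 fold change -2.20 ± 0.61, adjusted p = 0.131), Jun (-1.26 ± 0.44, adjusted p = 0.227), Fosl2 (-0.62 ± 0.23, adjusted p = 0.227) and Ier3 (-0.87 ± 0.37, adjusted p = 0.296). All 9 genes had overlapping groups, while 6.57% of all genes had labelled knockouts entirely above wild type and 6.21% entirely below. For Myc, the highest ethanol-fed labelled knockout, mouse 1 at 58.9 CPM, was above the lowest ethanol-fed wild type, mouse 1 at 47.8 CPM. Jund had a log2 fold change of -0.06 ± 0.26 in ethanol-fed mice, with a 95% interval from -0.61 to 0.49.

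The call for Myc depended on the tool. DESeq2 called 2 of the 9 lower in ethanol-fed labelled knockouts, Myc (adjusted p = 0.0316) and Jun (adjusted p = 0.0496), against 3.42% of all genes in either direction. limma-voom called 0, with 3 at an unadjusted p under 0.05, against 14.1% of all genes. The authors' deposited table gives Myc a log2 fold change of -2.20 with an FDR of 0.0161, the only one of the 9 under 0.05, and lists 1.86% of all genes as higher and 1.46% as lower. Without ethanol-fed wild-type mouse 1, the lowest of its group for Myc, edgeR called 3 of the 9 lower: Myc (-2.66, adjusted p = 0.0149), Fosl2 (-0.85, adjusted p = 0.0238) and Ier3 (-1.21, adjusted p = 0.0294), against 5.32% of all genes. Without ethanol-fed wild-type mouse 3 the Myc difference was -1.03. Over the alternatives the adjusted p ranged from 0.0149 to 0.537 for Myc and from 0.0496 to 0.703 for Jun.

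Whether the ethanol responses themselves differed was tested as an interaction, the log2 response in labelled knockouts minus that in wild type. The difference was negative for 8 of the 9 genes, with a median of -1.12 against 0.00 over all genes, and 0 of the 9 were called by edgeR, DESeq2 or limma-voom. Over all genes edgeR called 0.00764%, that is 1 gene. At an unadjusted p under 0.05 edgeR had 2 of the 9 (Jun and Ier3), DESeq2 had Myc as well, and limma-voom had Ier3 alone. Over all genes 5.31% passed that level with edgeR, 5.55% with DESeq2 and 4.84% with limma-voom. Ier3 differed by -1.49 ± 0.53 (adjusted p = 0.936) and Jun by -1.63 ± 0.63 (adjusted p = 0.936). Myc differed by -1.95 ± 0.89 (adjusted p = 0.936) and Fos by -1.83 ± 0.99 (adjusted p = 0.948). Jund was the exception in sign, at 0.08 ± 0.36, with a 95% interval from -0.71 to 0.86. The calls in wild type that were absent in labelled knockouts, for Fos, Egr1, Ier2 and Ier3, are therefore not shown to differ between the genotype labels. The interaction also called 0 genes in each cell marker list above and each gene list below. Ethanol calls made under only 1 label in those lists are likewise not shown to differ. The wild-type and labelled knockout comparisons within ethanol-fed mice, and the interaction, share the ethanol-fed libraries.

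**Figure D2:**
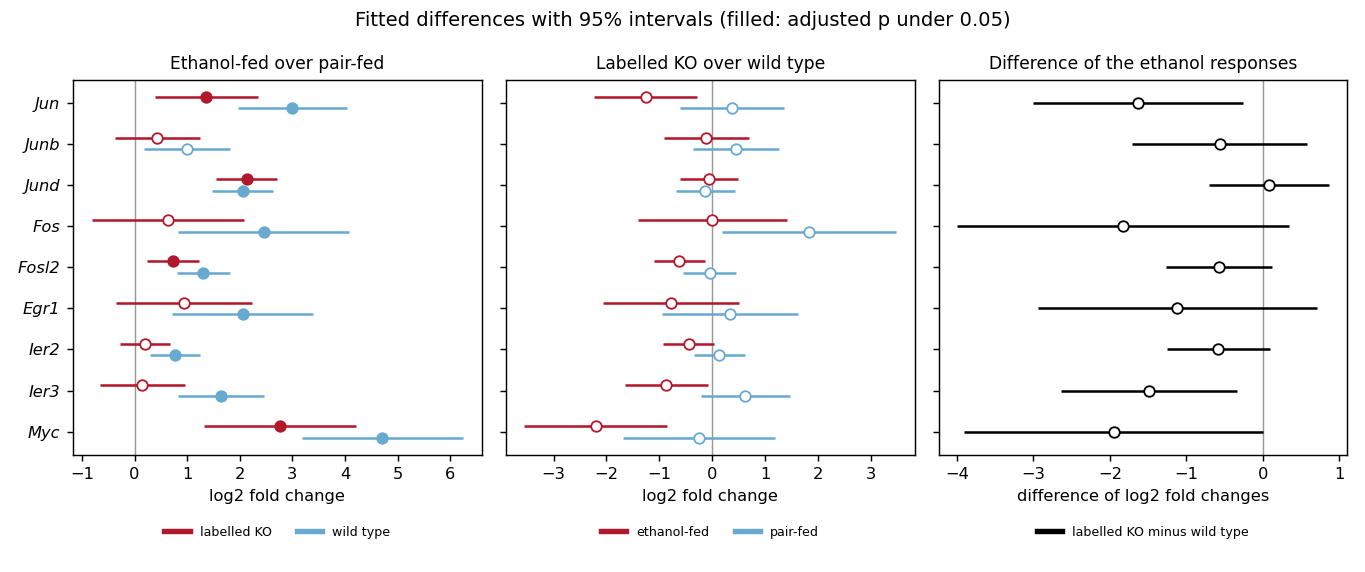
Fitted log2 fold changes of the 9 genes with 95% intervals. The left panel shows ethanol-fed over pair-fed in labelled knockouts and wild type, the middle panel labelled knockout over wild type in ethanol-fed and pair-fed mice, and the right panel the difference of both ethanol responses; filled symbols have an adjusted p under 0.05. Filled symbols number 4 for labelled knockouts and 8 for wild type, all in the left panel.

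Mice of 1 group differed more in these genes than in most others. The SD of log2 CPM within a group had a median over the 9 genes of 0.428 in ethanol-fed labelled knockouts, 0.674 in ethanol-fed wild type, 0.543 in pair-fed labelled knockouts and 0.258 in pair-fed wild type. Over all genes the median was 0.257 in ethanol-fed labelled knockouts, 0.28 in ethanol-fed wild type and 0.147 in both pair-fed groups. Fos in pair-fed labelled knockouts had an SD of 1.68, larger than that of 99.7% of genes in that group, and its mice differed by 10.3-fold. Egr1 had an SD between 0.573 and 0.964 in the 4 groups. Junb in ethanol-fed labelled knockouts, with an SD of 0.138, and Fosl2 in pair-fed wild type, with an SD of 0.067, were tighter than most genes, as were Fosl2 (0.193) and Ier2 (0.235) in ethanol-fed labelled knockouts.

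The mice did not rank alike for all 9 genes. In pair-fed labelled knockouts mouse 1 was the lowest for 8 of the 9 genes and mouse 2 the highest for 7. In ethanol-fed wild type mouse 3 was the highest for Jun, Fosl2 and Myc and the lowest for Junb, Fos, Egr1 and Ier2, while mouse 2 was the highest for the other 6 genes. In ethanol-fed labelled knockouts mouse 1 was the highest for Egr1 and Myc and the lowest for 6 others. Pair-fed wild-type mouse 3 was the highest for Jun, Jund, Fosl2, Ier3 and Myc and the lowest for Junb, Fos, Egr1 and Ier2.

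**Figure D3:**
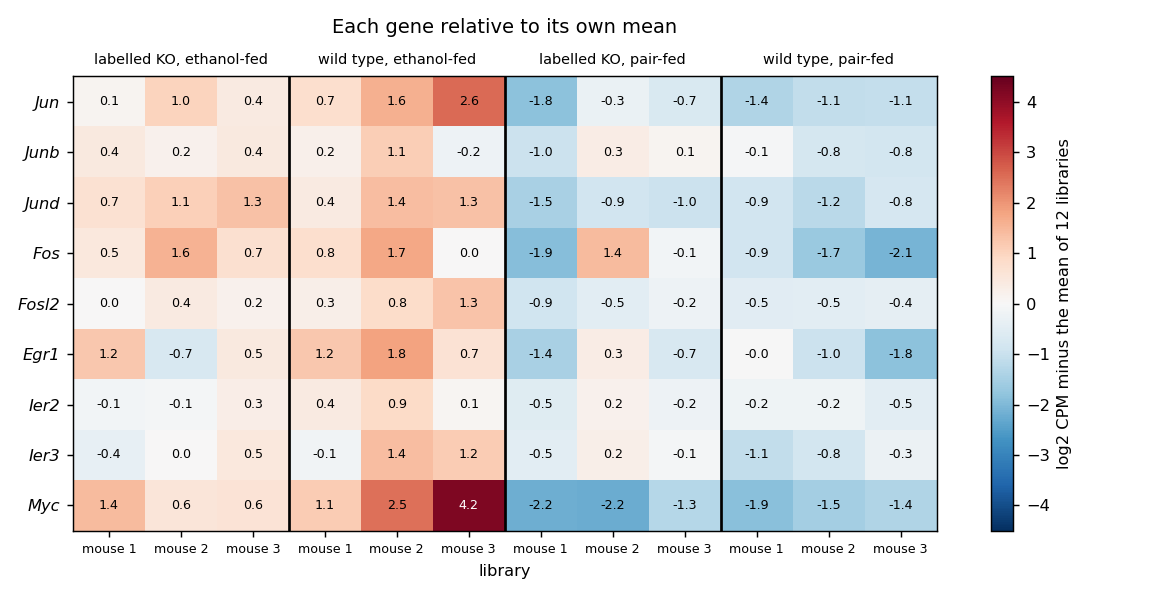
Each of the 9 genes in each of the 12 libraries as log2 CPM minus the gene's own mean over the libraries; red is above the mean and blue below it. Ethanol-fed labelled knockouts and ethanol-fed wild type are left of their pair-fed groups. Myc in ethanol-fed wild-type mouse 3 is the highest cell, while Junb and Fos in that mouse lie near their means.

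The makeup of the JUN set is given by length-scaled levels. Jun, Junb and Jund summed to 184 ± 31.2 RPKM in ethanol-fed labelled knockouts and 226 ± 77.4 in ethanol-fed wild type, against 59.5 ± 18.9 in pair-fed labelled knockouts and 55.1 ± 7.30 in pair-fed wild type (mean ± SD, n = 3 each). Junb made up 14.8% ± 3.34 of this sum in ethanol-fed labelled knockouts and 13.6% ± 6.29 in ethanol-fed wild type, against 32.2% ± 4.01 in pair-fed labelled knockouts and 25.95% ± 5.90 in pair-fed wild type. The Junb share of each ethanol-fed mouse, 6.38% to 18.6%, was below that of each pair-fed mouse, 20.4% to 34.9%. Jun made up 25.2% ± 9.06 in ethanol-fed wild type, against 13.7% ± 2.93 in pair-fed wild type, and reached 35.6% in ethanol-fed mouse 3. In labelled knockouts Jun made up 13.5% ± 3.64 after ethanol, against 15.5% ± 3.05 in pair-fed mice, and the Jund share was 71.7% ± 3.86, against 52.35% ± 6.98 in pair-fed mice. Jund made up 61.2% ± 2.96 in ethanol-fed wild type and 60.3% ± 4.71 in pair-fed wild type. These shares follow from levels already given and were not tested. They depend on gene length: with the GENCODE lengths of all 3 genes, which give Jund 1668 bases in place of 2878, Junb 2301 in place of 1840 and Jun 3189 in place of 3187, the Jund share was 83.0% and 74.5% in ethanol-fed labelled knockouts and wild type, against 68.5% and 75.05% in pair-fed labelled knockouts and wild type. Fos and Fosl2 together reached 7.27 ± 1.99 RPKM in ethanol-fed labelled knockouts and 9.36 ± 2.39 in ethanol-fed wild type, against 4.52 ± 2.38 in pair-fed labelled knockouts and 3.015 ± 0.186 in pair-fed wild type. JUN-family RNA exceeded their sum by 10.7-fold to 32.1-fold over the 12 libraries.

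**Figure D4:**
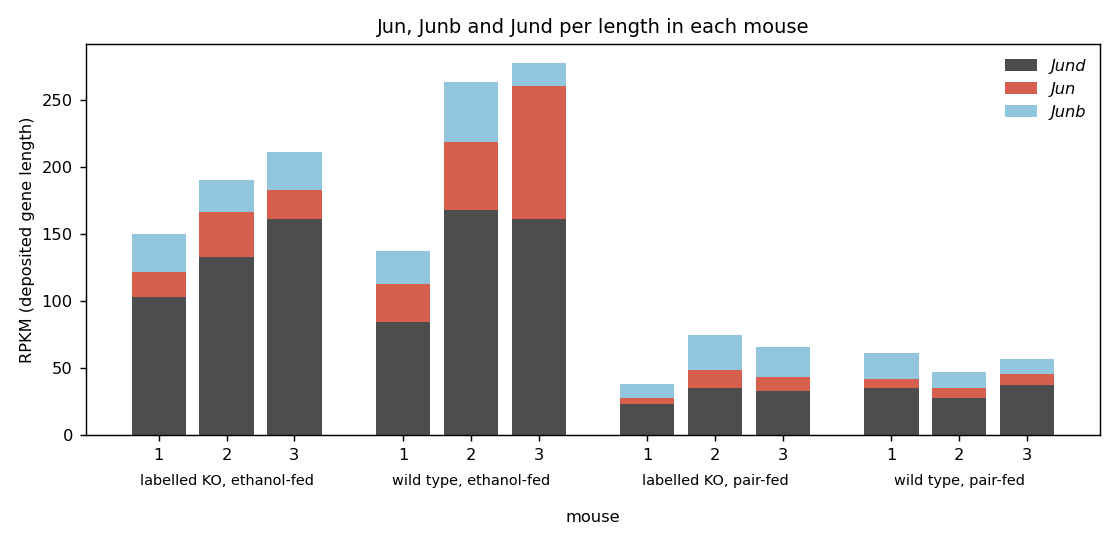
Stacked RPKM of Jund, Jun and Junb in each of the 12 mice, with ethanol-fed labelled knockout and ethanol-fed wild type left of the pair-fed groups. The ethanol-fed totals run from 137 to 278 RPKM and lie above the pair-fed totals, 38.3 to 74.6 RPKM; Jund is the largest segment in every mouse.

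Like the 9 genes, the gene lists that follow were chosen with earlier results of these data known, so their shares are not independent tests. Of 23 other immediate early genes in the table, 5 rose in labelled knockouts and 9 in wild type with ethanol, and 0 fell in either (median log2 fold change 0.84 and 0.96). The shares higher were 21.7% in labelled knockouts and 39.1% in wild type, against 13.7% and 18.9% of all genes. Of all genes, 10.9% in labelled knockouts and 14.5% in wild type were called lower. Sgk1, a serum-induced kinase, rose by 1.77 ± 0.46 in labelled knockouts and 4.02 ± 0.51 in wild type (adjusted p = 0.0178 and 0.000287). Klf6, a zinc-finger factor, rose by 1.59 ± 0.45 in labelled knockouts and 2.81 ± 0.47 in wild type (adjusted p = 0.0260 and 0.00134). Ier5, a relative of Ier2, rose by 1.73 ± 0.43 in labelled knockouts and 2.75 ± 0.44 in wild type, and Zfp36l1, whose protein promotes decay of RNAs with AU-rich elements, by 0.79 ± 0.23 in labelled knockouts and 1.34 ± 0.23 in wild type. The fifth gene called in labelled knockouts was Nr4a2, at 1.21 ± 0.38, against -0.24 ± 0.35 in wild type. Without a call were Zfp36, which had a log2 fold change of -0.35 in labelled knockouts and -0.38 in wild type, and Dusp1, a phosphatase of JNK and ERK kinases, at -0.86 in labelled knockouts and -0.13 in wild type.

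Among 12 partners and relatives of AP-1 in the table, 3 rose and 1 fell in labelled knockouts and 3 rose and 3 fell in wild type with ethanol. These are 25% higher and 8.33% lower in labelled knockouts, against 13.7% and 10.9% of all genes. In wild type they are 25% in each direction, against 18.9% and 14.5% of all genes. The list's median log2 fold change was -0.007 in labelled knockouts and 0.1 in wild type, so as a whole it stayed near 0.037 and 0.027, the medians of all genes. Atf3, a stress-induced ATF that dimerises with JUN, had the largest change of that list, 5.63 ± 0.90 in labelled knockouts and 7.23 ± 0.96 in wild type (adjusted p = 0.00161 and 0.000419). Mafk, a small MAF protein, rose by 1.24 ± 0.41 in labelled knockouts and 1.95 ± 0.42 in wild type. Fosb rose by 2.58 ± 0.54 in labelled knockouts (adjusted p = 0.00464) and had a log2 fold change of 1.00 ± 0.53 in wild type (adjusted p = 0.165). Other calls in wild type were Maff, which rose by 1.37 ± 0.33, and Mafg and Batf3, at -0.57 ± 0.15 and -1.21 ± 0.42.

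Of 22 kinases and factors that act upstream of these genes, 4 rose and 1 fell in labelled knockouts, and 2 rose and 2 fell in wild type. These are 18.2% higher and 4.55% lower in labelled knockouts, against 13.7% and 10.9% of all genes. In wild type they are 9.09% in each direction, against 18.9% and 14.5% of all genes, so there the list did not stand above the background. Map2k6, a kinase that activates p38, fell by 1.52 ± 0.27 in labelled knockouts and by 1.21 ± 0.27 in wild type. Srf, the factor of the CArG box, rose by 0.36 ± 0.12 in labelled knockouts and 0.55 ± 0.12 in wild type, and Map2k4, a JNK activator, by 0.33 ± 0.10 in labelled knockouts and 0.28 ± 0.10 in wild type. Mkl2, an SRF coactivator, and Elk3 rose in labelled knockouts by 0.71 ± 0.17 and 0.59 ± 0.19, and Crtc2, a CREB coactivator, had a change of -0.45 ± 0.16 in wild type (adjusted p = 0.0405).

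Around Myc, 2 of 10 network genes rose and 1 fell in labelled knockouts, and 4 rose and 3 fell in wild type. These are 20% higher and 10% lower in labelled knockouts, against 13.7% and 10.9% of all genes. In wild type they are 40% higher and 30% lower, against 18.9% and 14.5% of all genes. Mxd1, which competes with MYC for MAX, fell by 1.13 ± 0.26 in labelled knockouts and by 1.298 ± 0.259 in wild type. Mlx rose by 0.71 ± 0.21 in labelled knockouts and 0.79 ± 0.21 in wild type, and Mnt, another MAX partner that opposes MYC, rose by 0.90 ± 0.24 in labelled knockouts and had a change of 0.45 ± 0.24 in wild type. Mycn, the paralog of Myc, fell by 3.05 ± 0.50 in wild type (adjusted p = 0.000805) and had a change of -0.82 ± 0.57 in labelled knockouts (adjusted p = 0.313). The difference of these responses was not called. In pair-fed mice Mycn was lower in labelled knockouts than in wild type, by -2.17 ± 0.46 (adjusted p = 0.0468).

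Of 20 genes known to be activated by MYC, 9 rose and 2 fell in labelled knockouts and 12 rose and 1 fell in wild type, with medians of 0.55 and 0.65. These are 45% higher and 10% lower in labelled knockouts, against 13.7% and 10.9% of all genes. In wild type they are 60% higher and 5% lower, against 18.9% and 14.5% of all genes. Nop58, a component of small nucleolar ribonucleoproteins, rose by 1.54 ± 0.31 in labelled knockouts and 2.22 ± 0.31 in wild type, and Ppan, a ribosome assembly factor, by 1.38 ± 0.24 in labelled knockouts and 1.41 ± 0.24 in wild type. Odc1, the first enzyme of polyamine synthesis, rose by 0.85 ± 0.14 in labelled knockouts and 1.18 ± 0.14 in wild type, and Srm, spermidine synthase, by 0.77 ± 0.17 in labelled knockouts and 1.16 ± 0.17 in wild type. Ldha, lactate dehydrogenase A, went the other way, at -0.70 ± 0.24 in labelled knockouts and -0.65 ± 0.24 in wild type (adjusted p = 0.0471 and 0.0479), and Npm1, a nucleolar chaperone, had a change of -0.46 ± 0.16 in labelled knockouts (adjusted p = 0.0479).

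Of 17 genes known as AP-1 or EGR1 targets, 4 rose and 0 fell in labelled knockouts and 7 rose and 1 fell in wild type, with medians of 0.49 and 0.76. These are 23.5% higher and 0% lower in labelled knockouts, against 13.7% and 10.9% of all genes. In wild type they are 41.2% higher and 5.88% lower, against 18.9% and 14.5% of all genes. Areg, the EGF receptor ligand amphiregulin, rose by 6.54 ± 0.82 in wild type (adjusted p = 0.000177) and had a change of 2.82 ± 0.99 in labelled knockouts (adjusted p = 0.0532). The interaction was not called for Areg. In ethanol-fed mice Areg was lower in labelled knockouts than in wild type, by -3.23 ± 0.56 (adjusted p = 0.0132). Pdgfa, a platelet-derived growth factor chain, rose by 2.25 ± 0.33 in labelled knockouts and 1.56 ± 0.31 in wild type, and Icam1, an adhesion molecule, by 0.82 ± 0.18 in labelled knockouts and 1.04 ± 0.19 in wild type. The chemokine Ccl2 rose by 2.94 ± 0.62 in labelled knockouts and 2.15 ± 0.68 in wild type. Plaur, the urokinase receptor, rose by 2.20 ± 0.45 in wild type and had a change of 1.09 ± 0.44 in labelled knockouts (adjusted p = 0.0871). Vegfa was the gene called lower in wild type, at -0.55 ± 0.14.

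**Figure D5:**
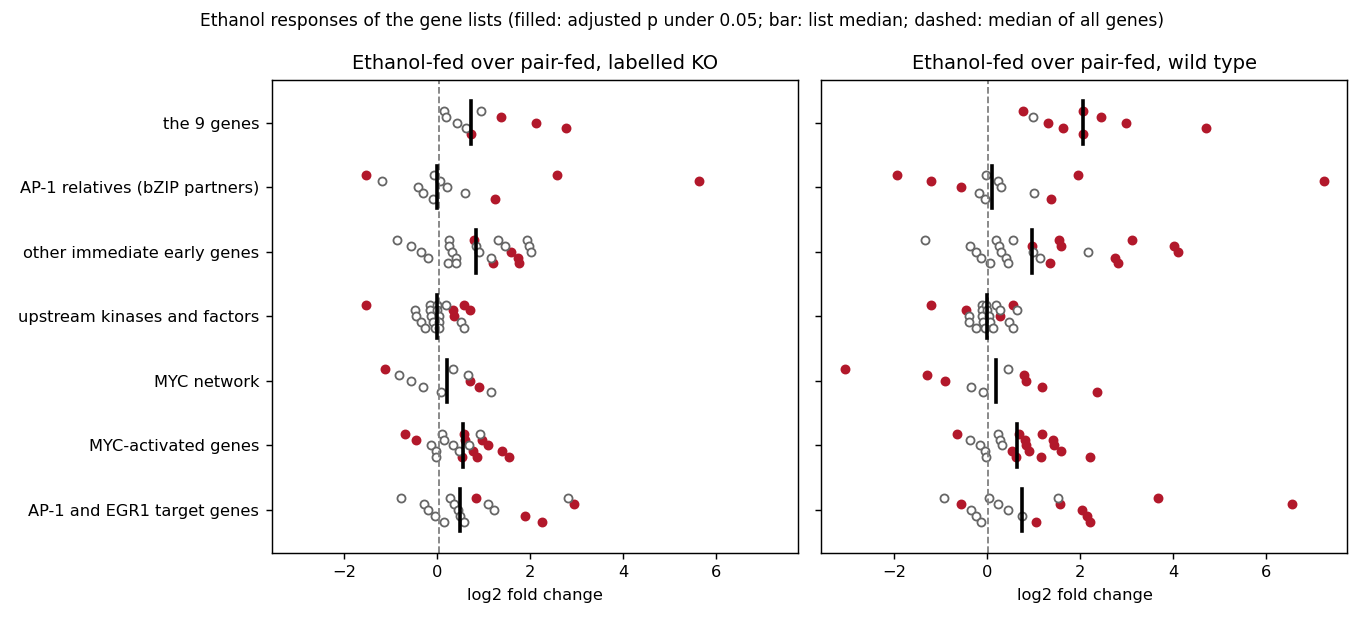
Log2 fold changes of ethanol-fed over pair-fed for the 9 genes and the 6 other gene lists, in labelled knockouts (left) and wild type (right). Each point is a gene, filled where the adjusted p is under 0.05; the bar is the list's median and the dashed line the median of all genes. In wild type the bar of the 9 genes, at 2.05, is to the right of the bars of the other lists.

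The genes whose pattern over the 12 libraries was most like each member were found among 7639 genes of at least 10 CPM, by the root mean square difference of log2 CPM after centring each gene on its own mean. Jun was nearest to Klf6 (0.354), then Elmsan1 (0.432) and Cd14 (0.437), and Jund to Slc16a5 (0.23), Synpo (0.25) and Cyp4f17 (0.253). Fosl2 was nearest to Cpeb4 (0.179), Zfp36l1 (0.185) and Rrs1 (0.192), and Myc to Gadd45a (0.521), Ddit3 (0.528) and Slc16a6 (0.538). For Fos and Egr1 the nearest genes were farther off, Plk3 at 0.768 and B3galt1 at 0.634. Junb was nearest to Myadm (0.327), Ier2 to Rasip1 (0.19) and Ier3 to Slc2a1 (0.351). Within the 9 genes the smallest distance was between Junb and Ier2 (0.343), while Jun and Jund, the nearest members to each other, differed by 0.556. The member nearest to Myc was Jun, at 0.925. The distance is not scaled to how much a gene varied, so genes that varied little lie closer. A member's own root mean square around its mean was 0.38 for Ier2 and 0.586 for Junb. It was 1.079 for Jund, 1.258 for Jun and 1.98 for Myc, so these distances do not rank the pairs by likeness of pattern. The 12 libraries share the 4 groups, so these distances describe the ethanol difference as well as the differences between mice.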

How the data were processed

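Per the labels' protocols, Trizol-extracted RNA went into TruSeq libraries. STAR 2.5, Subread 1.5.3 (featureCounts), the build mm10 and edgeR 3.20.8 are named in the submitters' processing notes; the sources name neither the annotation nor the strand setting. The authors deposited 1 table with raw read counts per gene and library. The log2 values deposited are log2 CPM per library and log2 fold changes of the authors' genotype comparisons, per the file headers. Each such comparison has deposited p-values, unadjusted and as FDR. The deposited log2 CPM differed by at most 7.59e-06 from log2 CPM recomputed with TMM and a prior of 0.25 counts.

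All 13097 genes and all 9 members passed edgeR's filterByExpr. TMM-normalised counts entered the quasi-likelihood test of edgeR 4.0.16 (R 4.3.3, robust) over all 12 libraries with 1 coefficient per group and 8 residual degrees of freedom. Each contrast was adjusted by Benjamini-Hochberg over the whole table, and 0.05 was the threshold. Standard errors are fold changes (log2) divided by √F. Means ± SD are of TMM-normalised CPM, or of RPKM with the deposited Length. DESeq2 1.42.0 and limma-voom (limma 3.58.1) were alternatives. Fits were tested on simulated counts.

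Libraries of the same group differed beyond counting noise (chi-square of 12.46 to 109.9 per degree of freedom), and the series' design text says that they came from individual mice. The members and gene lists were chosen with earlier results of these data known, so no set test or list-adjusted p is given. Named genes are all 9 members, up to 4 genes per list with the smallest ethanol p-values, and the 3 genes nearest in pattern; others, named to spell out a count or as uncalled examples (Zfp36, Dusp1), were chosen after their values were seen. Values of some listed genes that enter the counts are not reported here.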

Additional observations from a re-analysis of the deposited data

How the results depend on the processing

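Of 936 values of the 9 genes under alternatives, 878 kept their direction and side of the threshold, 25 lost a call, 11 gained one and 22 changed sign. Leaving out 1 library at a time gave 5 to 9 of the 9 genes called with ethanol in wild type (fewest without ethanol-fed mouse 2 or pair-fed mouse 3 of that label), 2 to 4 in labelled knockouts, and 0 to 3 for labelled knockout over wild type in ethanol-fed mice. Genes called over the whole table then numbered 1853 to 3867 with ethanol in labelled knockouts, against 3222 with all libraries. The fewest came without 1 pair-fed labelled knockout (mouse 1, 2 or 3, 2133, 1853 and 2089 genes). For labelled knockout over wild type they numbered 48 to 151 in pair-fed mice (48, 57 and 68 without wild-type mouse 1, 2 or 3, 64 and 69 without labelled knockout mouse 2 or 3) and 69 to 697 in ethanol-fed mice. There the extremes were without labelled knockout mouse 2 (69) and wild-type mouse 1 (697), which also gave the 20 of the range 1 to 20 for the interaction. In pair-fed mice, against 114, fitting only the groups compared gave 481, DESeq2 252 and limma-voom with group weights 554. In ethanol-fed mice, against 148, they gave 47, 448 and 21, and DESeq2 called 2 of the 9 genes and 15 genes for the interaction. The cause was not tested.

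The log2 fold change of labelled knockout over wild type of Fos in ethanol-fed mice, 0.0033, became -0.0135 with median-of-ratios factors, -0.0021 with total counts, -0.0011 with only the groups compared and -0.0175 with DESeq2. Without 1 library, signs also changed for uncalled values. With ethanol in labelled knockouts Ier3 ranged from -0.0958 to 0.343. For labelled knockout over wild type in pair-fed mice Jund ranged from -0.26 to 0.0264, Fosl2 from -0.212 to 0.113, Egr1 from -0.277 to 0.934 and Ier2 from -0.089 to 0.294. In ethanol-fed mice Junb ranged from -0.369 to 0.344, Jund from -0.314 to 0.101 and Fos from -0.407 to 0.575, and for the interaction Jund ranged from -0.178 to 0.228. Total-count scaling moved the median of all genes under ethanol to 0.14 in labelled knockouts and 0.18 in wild type.

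Replicate numbers did not pair the mice (same-numbered deviations correlated at -0.15 to 0.144, 2 of 18 pairs over 0.1). With the replicate number as a block, 4 of the 9 genes were called with ethanol in labelled knockouts and 8 in wild type, and 0 elsewhere. The table then gave 2915 and 3949 genes called with ethanol in labelled knockouts and wild type. Using the GENCODE lengths of Jun, Junb and Jund, chosen after seeing the data, moved the Jund share to 83.0% in ethanol-fed labelled knockouts, 74.5% in ethanol-fed wild type, 68.5% in pair-fed labelled knockouts and 75.05% in pair-fed wild type. At this depth the fewest reads behind a value were the 14 of Fos in pair-fed wild-type mouse 3.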
